A study of Homo sapiens with 12 samples.

Results

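The response of MB157 cells to 72 h of SOX2 induction was measured by RNA-seq in 6 of the 12 libraries of the series, 3 from MB157 cells with a doxycycline-inducible SOX2 vector (iSOX2) and 3 from MB157 cells with the matching empty vector (iEV). MB157 is an established line of triple-negative breast cancer (TNBC), a breast tumor type without estrogen receptor, progesterone receptor or HER2. It depends on Notch signaling, and the labels give its genotype as wild type. From exons absent in MB157 reads, the study infers a deletion within NOTCH1 that removes the extracellular domain and leaves a receptor active without ligand. Both groups received doxycycline at 1 µg/ml, so that the drug itself is shared, and the labels name no γ-secretase inhibitor treatment for either. The vector is a lentivirus with a doxycycline-responsive promoter, an HA tag and puromycin resistance, and nothing in the sources used here says that either line is a single clone. The other 6 libraries come from MB157R cells, made resistant by 25 weeks in 1 µM of the γ-secretase inhibitor LY3039478 and carrying either the empty vector or an inducible Notch1 intracellular domain (iN1-ICD), 3 of each and with the same doxycycline treatment. They enter only where SOX2 levels are set side by side and in an alternative fit over all 12 libraries. All 10904 genes that passed the filter of the authors in this comparison were tested, out of 29744 entries in the count table.

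SOX2 is a transcription factor of the HMG-box family, which bends DNA at a short AT-rich motif and holds stem and progenitor cells of the embryo, the nervous system and several epithelia in an undifferentiated state. In squamous and breast epithelium it is known for its balance with differentiation programs. It acts with partner factors, so that the genes it switches on or off differ between tissues. Levels below are CPM, counts scaled to a common library size by TMM, which corrects for the total and the makeup of each library, given per library or as the mean ± SD of 3 libraries. A fold is the ratio of 2 such means. Calls of higher and lower rest on edgeR's quasi-likelihood test, with p-values adjusted by Benjamini-Hochberg over all 10904 genes and a threshold of 0.05, and log2 fold changes are those of that fit.

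The libraries held between 32773820 and 43344439 estimated counts, of which the tested genes took 92.7%, and the TMM factors lay between 0.972 and 1.02. The first principal component held 91.8% of the variance and separated the 2 groups. No library repeats another, since pairs of replicates gave 4.10 to 5.56 for the chi-square statistic of their counts divided by its degrees of freedom. Of the defining markers of breast epithelium, all 6 stood at 1 CPM or more in both groups, with a summed level of 2281 to 2303 CPM in iEV and 1806 to 1844 CPM in iSOX2.

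SOX2 itself (chromosome 3, 181711925 to 181714436, GRCh38, plus strand, a gene with 1 exon) stood at 6.66, 7.74 and 7.03 CPM in the iEV libraries and at 294, 337 and 300.3 CPM in the iSOX2 libraries. No iEV library came near any iSOX2 library, and the means differed 43.5-fold (log2 fold change 5.43, standard error 0.064, adjusted p = 5.8e-19). The counts are per gene, and reads of the endogenous gene and of the vector's cDNA cannot be told apart in them. With all 12 libraries scaled together, the level in iSOX2 was 296 ± 22.8 CPM, that in drug-resistant MB157R iEV cells 62.6 ± 6.75 CPM and that in MB157 iEV cells 6.83 ± 0.534 CPM, so that the induced level was above the one MB157R cells reach on their own. SOX2-OT, a long noncoding RNA whose gene spans the SOX2 locus on the same strand, stood at 0.124, 0.0956 and 0.247 CPM in iEV and at 21.8, 21.9 and 21.2 CPM in iSOX2. In GENCODE 44 its exons share 0 bases with the SOX2 exon. Its counts were 1.86%, 1.23% and 3.51% of those of SOX2 in the iEV libraries and 7.43%, 6.48% and 7.05% in the iSOX2 libraries. How many of these counts come from reads that were split between the 2 genes by the estimate was not tested.

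Most tested genes moved, and most moved little. Of the 10904 genes 7237 (66.4%) were called, 3539 (32.5%) higher and 3698 (33.9%) lower in iSOX2. These shares are the ones against which the counts of the gene lists below are to be read. The groups did not overlap for 70.1% of the tested genes and for 96.5% of the called ones, and unless stated otherwise they did not overlap for any gene given here as higher or lower. A log2 fold change under 0.5 in size was found for 73.9% of the called genes, and the biological coefficient of variation was 0.0378. With library totals alone in place of TMM, 4396 genes were called higher and 2859 lower, which is 60.6% against 48.9% higher among the called. The median log2 fold change of all genes was -0.0019 with TMM and 0.057 with library totals alone.

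A change of at least 2-fold was called for 660 genes (6.05%), of which 377 (3.46% of the tested) were higher and 283 (2.60%) lower. The larger the change, the more of it lay upward, with 127 genes higher and 52 lower by at least 4-fold and 39 higher and 5 lower by at least 16-fold. Many of the rises began near 0. Of the 93 genes with a mean under 1 CPM in iEV, 44 rose by at least 2-fold, against 12 of the 2195 genes between 100 and 1000 CPM. A gene near 0 in iEV could pass the filter through its iSOX2 libraries alone, so this count describes the table and not silent genes at large.

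**Figure D1:**
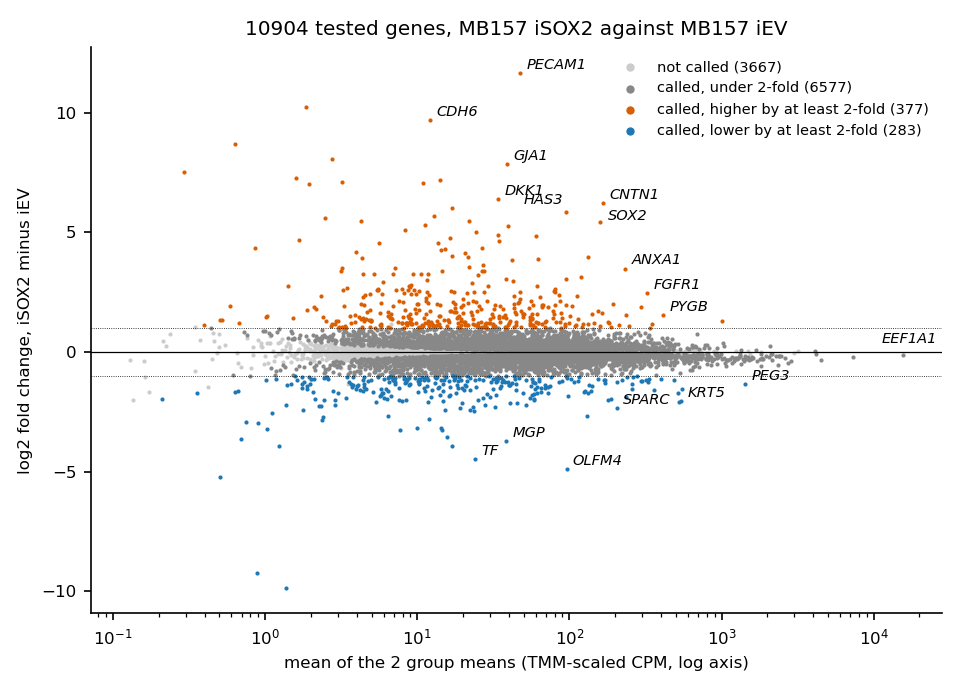
The log2 fold change (iSOX2 minus iEV) of each of the 10904 tested genes is plotted against the mean of the 2 group means in TMM-scaled CPM on a log axis, with dotted lines at 2-fold. Orange points are the 377 genes called higher and blue points the 283 called lower by at least 2-fold, and the cloud of rises reaches further from 0 than that of falls, among which the 2 lowest points have 0 counts in iSOX2 and a fitted value that depends on the prior count.

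Among the largest rises were adhesion molecules, secreted factors, a long noncoding RNA and a transcription factor. The 10 largest rises and falls are those by log2 fold change among called genes that reach a mean of 10 CPM in the higher group and whose groups do not overlap. PECAM1 (chromosome 17, 64319415 to 64390860), a homophilic adhesion molecule best known from endothelium and platelets, stood at 0, 0.0478 and 0.0247 CPM in iEV and at 93.3, 101 and 91.7 CPM in iSOX2. With 3 counts over the iEV libraries and 12266 over the iSOX2 libraries, the ratio was 3642 with a counting interval of 1246 to 17662. CDH6, a cadherin of kidney and neural crest, went from 3 counts to 3116, a ratio of 925 with an interval of 316 to 4489. Intervals here cover counting error at 95% only. Neither gene was above 0.0740 CPM in any iEV library.

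GJA1, the gap junction protein connexin 43, stood at 0.371, 0.311 and 0.321 CPM in iEV and at 74.6, 74.8 and 82.9 CPM in iSOX2, 232-fold higher. CNTN1, a neural adhesion molecule of the immunoglobulin family (chromosome 12, 40692439 to 41072415), stood at 5.08, 4.56 and 3.75 CPM in iEV and at 329, 328 and 331 CPM in iSOX2, a rise of 73.9-fold (log2 fold change 6.22, standard error 0.055, adjusted p = 5.7e-20). Counts are not corrected for gene length here, so levels are compared between groups and not between genes.

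DKK1 (chromosome 10, 52314281 to 52317657), a secreted inhibitor that blocks the Wnt coreceptor LRP6, stood at 0.867, 0.645 and 0.888 CPM in iEV and at 70.5, 64.04 and 67.9 CPM in iSOX2. HAS3 (chromosome 16, 69083484 to 69118719), which makes hyaluronan at the cell surface, stood at 2.97, 3.85 and 2.84 CPM and at 181, 191 and 185 CPM. In both cases every iSOX2 library stood above every iEV library, DKK1 by 84.4-fold and HAS3 by 57.6-fold. All 3 iSOX2 libraries lay far above all 3 iEV libraries for the remaining rises. SPOCK3, a testican proteoglycan, rose 143-fold to 28.04 ± 1.12 CPM, and SEMA3D, a secreted guidance cue, rose 64.3-fold to 33.1 ± 1.45 CPM. SOX21, a related SOXB gene that counters SOX2 in neural progenitors, rose 53.1-fold, from 0.478 ± 0.166 to 25.4 ± 0.599 CPM, in all 3 libraries.

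Among the largest falls were secreted proteins, a receptor and a channel. OLFM4 (chromosome 13, 53028813 to 53052057), a secreted glycoprotein and Notch-responsive gene of intestinal stem cells, stood at 186, 196 and 173 CPM in iEV and at 6.25, 6.34 and 6.23 CPM in iSOX2, 29.5-fold lower (log2 fold change -4.88, standard error 0.056, adjusted p = 5.8e-19). TF, the iron carrier transferrin, fell 22.5-fold from 46.2 ± 2.03 to 2.05 ± 0.184 CPM. MGP, an inhibitor of calcification in the matrix, fell 13.1-fold, from 71.1 ± 5.45 to 5.42 ± 0.297 CPM. Each iEV library lay several-fold above each iSOX2 library for all of these genes. The others among the 10 were MYEOV, a gene found amplified beside CCND1 in tumors (15.5-fold lower), the water channel AQP4 (11.8-fold), the adenosine receptor ADORA2A (9.65-fold), the RAS-like growth inhibitor RERG (9.47-fold), the BMP ligand BMP6 (9.22-fold), the protease inhibitor SERPINA3 (8.95-fold) and FGFBP1, a carrier that releases FGFs from the matrix (6.87-fold).

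**Figure D2:**
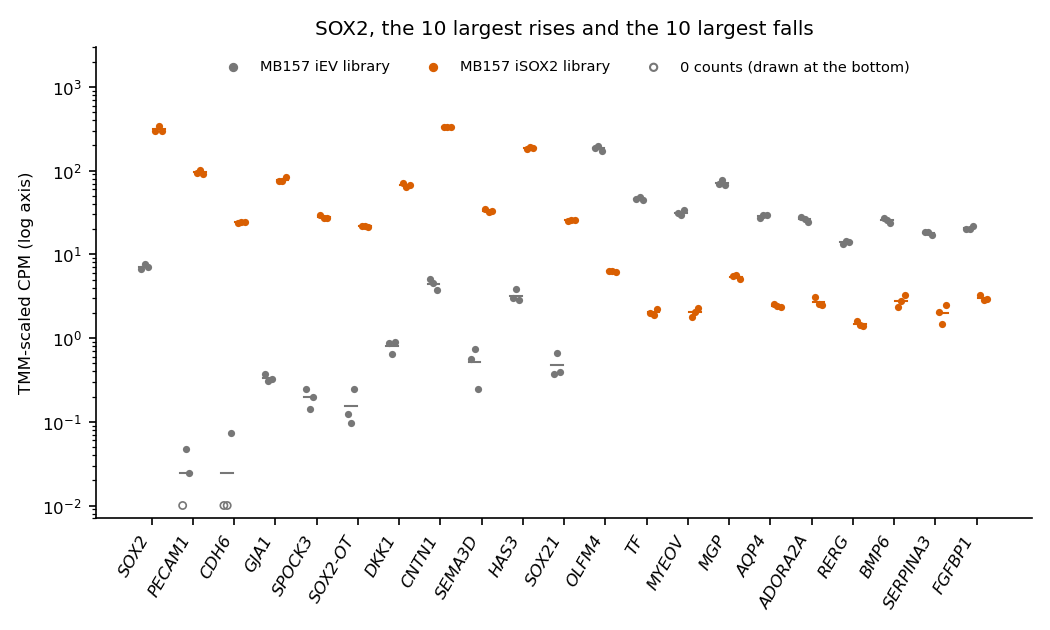
Levels in TMM-scaled CPM (log axis) are drawn for SOX2, the 10 largest rises and the 10 largest falls, with 1 point per library in grey for MB157 iEV and orange for MB157 iSOX2, a line at each group mean and open circles at the bottom for libraries with 0 counts. The 2 groups are separated for every gene shown, and 8 of the 10 rises other than CNTN1 and HAS3 begin under 1 CPM.

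In counts rather than in fold the response looked different. Among the 5 called genes that gained most CPM were FGFR1, PYGB, ANXA1 and CD44. PYGB, the brain form of glycogen phosphorylase, stood at 220.1, 212 and 202 CPM in iEV and at 620.5, 621 and 611 CPM in iSOX2, 2.92-fold higher. ANXA1, an annexin that dampens inflammation, rose 11.2-fold from 38.1 ± 3.11 to 427 ± 11.4 CPM, and CD44, the hyaluronan receptor, rose 1.68-fold. The 5 that lost most were EEF1A1, PEG3, EEF2, ACTG1 and HNRNPA1, all but PEG3 by less than 1.5-fold. EEF1A1, the factor that brings tRNAs to the ribosome, went from 16289 to 14843 CPM. The exception was PEG3, an imprinted zinc finger gene, which fell 2.51-fold from 2056 ± 20.5 to 819 ± 30.3 CPM.

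Promoters of the genes with the largest changes were searched for the SOX motifs ACAAAG and ACAATG on both strands, over the 300 bases from 250 before to 50 after the start site (RefSeq, GRCh38.p14). Of the 20 genes, 14 had a promoter in the table used, and 5 of these held a motif, DKK1 and HAS3 among the rises and OLFM4, SERPINA3 and FGFBP1 among the falls. The 3 below are shown because DKK1 and HAS3 rose and OLFM4 fell most among the genes with a motif. Capitals mark the motif, which is read on the minus strand (CTTTGT) in DKK1, 76 bases before the start, and in HAS3, 182 bases before it (a start inside the span given above for HAS3), and on the plus strand in OLFM4, 226 bases before it. All 3 lie on the plus strand of the genome, at chr10:52314031-52314330, chr16:69107290-69107589 and chr13:53028563-53028862.
DKK1: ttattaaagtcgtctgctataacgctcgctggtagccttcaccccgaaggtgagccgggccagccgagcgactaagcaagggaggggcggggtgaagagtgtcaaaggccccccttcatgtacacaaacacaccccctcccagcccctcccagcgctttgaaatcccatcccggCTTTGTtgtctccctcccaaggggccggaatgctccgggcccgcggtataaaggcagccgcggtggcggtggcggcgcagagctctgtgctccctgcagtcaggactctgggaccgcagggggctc
HAS3: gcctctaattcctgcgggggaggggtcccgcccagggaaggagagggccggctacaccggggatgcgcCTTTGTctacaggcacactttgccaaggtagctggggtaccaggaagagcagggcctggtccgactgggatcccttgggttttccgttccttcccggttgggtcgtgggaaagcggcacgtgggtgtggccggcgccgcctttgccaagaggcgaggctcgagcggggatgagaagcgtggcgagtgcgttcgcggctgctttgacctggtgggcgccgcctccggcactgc
OLFM4: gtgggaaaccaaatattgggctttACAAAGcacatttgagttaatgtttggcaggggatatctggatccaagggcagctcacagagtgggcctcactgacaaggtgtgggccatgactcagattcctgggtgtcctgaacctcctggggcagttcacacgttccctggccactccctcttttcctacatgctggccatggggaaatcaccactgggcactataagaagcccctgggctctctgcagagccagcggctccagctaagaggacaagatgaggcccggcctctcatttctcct
Such short motifs occur often. A promoter of the same length held at least 1 of them in 18.7% of the 299 genes higher by at least 2-fold that have one, in 26.2% of the 191 lower genes, in 15.7% of the 9029 tested genes and in 24.6% of all 27305 RefSeq promoters. The median GC content was 65.3%, 62.7% and 65.7% in the first 3 of these sets. TGGGAA, the core bound by the Notch effector RBPJ, was found in 22.7%, 24.6% and 22.0% of them, and TGACTCA, the AP-1 site, in 4.68%, 7.33% and 2.69%. These matches describe the letters of the windows, and no binding was measured here.

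Genes for laminin contact rose more often than they fell, and collagen chains fell more often than they rose. Laminins are the trimers on which epithelial cells sit, and integrins are their receptors. Of the 16 tested genes of laminins and laminin binding, 9 rose and 4 fell (median log2 fold change 0.17, against -0.0019 over all genes). COL17A1 (chromosome 10, 104031286 to 104085880), a transmembrane collagen of hemidesmosomes, stood at 0.526, 0.621 and 0.493 CPM in iEV and at 24.1, 21.97 and 20.2 CPM in iSOX2. LAMA4 rose 3.93-fold, and LAMB1 fell 1.43-fold. COL17A1 rose 40.4-fold, with every iSOX2 library above every iEV library. It was counted with the laminin genes and not among the collagen chains below.

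Of the 10 tested integrin subunits 7 rose and 3 fell, with a median of 0.30. ITGA2, a collagen and laminin receptor chain, rose 3.1-fold, and ITGB8, which activates TGF-beta, rose 2.28-fold. ITGA6, which encodes the stem cell marker CD49f, went from 24.5 ± 1.62 to 29.9 ± 0.143 CPM, or 1.22-fold. Among 12 collagen chains 2 rose and 7 fell (median -0.45), led by COL27A1 (3.29-fold lower) and COL9A3 (2.55-fold), 2 chains known from cartilage. COL4A1 and COL4A2, the chains of basement membrane collagen, fell 1.36-fold and 1.58-fold.

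Other matrix proteins went both ways, 4 higher and 6 lower of 10. SPARC, a collagen-binding matrix protein, stood at 348, 343 and 339 CPM in iEV and at 64.4, 66.3 and 69.5 CPM in iSOX2, 5.15-fold lower in all 3 libraries. The small proteoglycan BGN fell 3.24-fold. TNC, an anti-adhesive matrix protein of remodelling tissue, rose 2.26-fold, and LOX, which crosslinks collagen, rose 2.35-fold. Of 12 proteases and inhibitors tested, 4 rose and 5 fell. The inhibitor TIMP1 rose 3.79-fold, and the plasminogen activators PLAU and PLAT fell 2.92-fold and 2.23-fold. FN1, LAMA3, MMP2, MMP9 and MMP14 did not pass the filter of the authors and were not tested.

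Cadherins, which join cells through their homophilic domains, showed a split between a few large rises and smaller falls. Of 12 tested, 4 rose (33.3%), each by at least 2-fold, and 5 fell (41.7%), against 32.5% and 33.9% of all tested genes. CDH2, the N-cadherin of mesenchymal and neural cells, stood at 1.42, 1.74 and 1.21 CPM in iEV and at 27.7, 29.8 and 29.1 CPM in iSOX2, and PCDH7, a protocadherin, rose 34.7-fold to 16.05 ± 0.953 CPM. FAT2, a giant cadherin of squamous epithelium, fell 3.12-fold. CDH1, the epithelial E-cadherin, stood at 579.5 ± 6.26 CPM in iEV and 599.9 ± 1.42 CPM in iSOX2 and did not pass the test (log2 fold change 0.05, standard error 0.025, adjusted p = 0.091), though with library totals alone it did (log2 fold change 0.11, adjusted p = 0.0016 from the same test).

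Among 15 genes of desmosomes and gap junctions 9 fell and 4 rose (median -0.18). The desmosomal cadherins DSC2, DSC3 and DSG2 fell 1.47-fold, 1.64-fold and 1.37-fold, and their plaque proteins DSP and PKP1 1.4-fold and 1.84-fold. PKP2, a plaque protein prominent in heart and simple epithelium, rose 3.98-fold, from 7.1 ± 0.152 to 28.3 ± 1.56 CPM. Of 30 genes of tight junctions and epithelial identity 10 rose and 13 fell (33.3% and 43.3%, against 32.5% and 33.9% of all tested genes). The claudins CLDN3, CLDN4, CLDN7 and CLDN8 fell 1.71-fold, 1.35-fold, 1.31-fold and 2.47-fold. EPCAM stood at 529.7 ± 15.04 CPM in iEV and 531 ± 10.4 CPM in iSOX2, and its libraries overlapped (fitted log2 fold change 0.0025 with standard error 0.029, adjusted p = 0.945).

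The tested mesenchymal genes and factors of epithelial-mesenchymal transition (EMT) in this list went both ways, with 5 higher and 7 lower of 13 (median -0.25). These are 38.5% and 53.8%, against 32.5% and 33.9% of all tested genes. The list leaves out CDH2, an EMT marker of the study that rose and was counted with the cadherins above. With a published EMT gene set, the study reported an association of EMT with the genes raised by SOX2 in MB157. VIM, the intermediate filament vimentin, fell 1.33-fold, SNAI1 2.08-fold, TWIST2 2.22-fold and FOXC1, a factor of basal-like breast cancer, 2.21-fold. PDGFRA, a receptor of stromal cells, rose 1.65-fold from 27.5 ± 1.48 to 45.4 ± 2.62 CPM, and TWIST1 rose 1.29-fold. SNAI2 and ZEB1 were not tested.

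Keratins and squamous genes fell more often than they rose. Keratins are the intermediate filaments of epithelium and differ between basal, luminal and cornified cells. Of 14 tested keratins 10 fell, 5 of them by at least 2-fold, and 2 rose (median -0.80). KRT5, the basal keratin, stood at 855, 908 and 858 CPM in iEV and at 194, 216 and 224 CPM in iSOX2, a 4.13-fold fall. The stress keratin KRT6B fell 3.99-fold and the luminal keratins KRT19 and KRT18 1.94-fold and 1.55-fold, while KRT23 and KRT80 rose 1.92-fold and 1.53-fold. Of 12 genes of squamous differentiation 9 fell (median -0.91), among them the skin protease KLK5 (3.63-fold) and ZNF750, a factor that drives keratinocyte maturation (2.8-fold). The 1 that rose was KLK10, a related protease, at 14.5, 13.6 and 14.9 CPM in iEV and 81.04, 83.6 and 77.5 CPM in iSOX2.

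Secreted and luminal products were reshuffled, with 6 higher and 10 lower of 16. AZGP1, a lipid-mobilizing glycoprotein of breast secretion, fell 3.27-fold from 793 ± 14.4 to 242 ± 3.67 CPM. The disulfide isomerases AGR2 and AGR3 of secretory cells appeared from near 0. AGR2 had 2 counts over the iEV libraries and 406 over the iSOX2 libraries, a ratio of 181 with an interval of 49.7 to 1498, and AGR3 had 0 and 162 counts. EHF, an epithelial ETS factor, rose 3.89-fold. Of 18 lineage factors of the breast 7 rose and 9 fell, with TFAP2A 2.04-fold higher. GATA3, ESR1 and PGR were not tested.

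**Figure D3:**
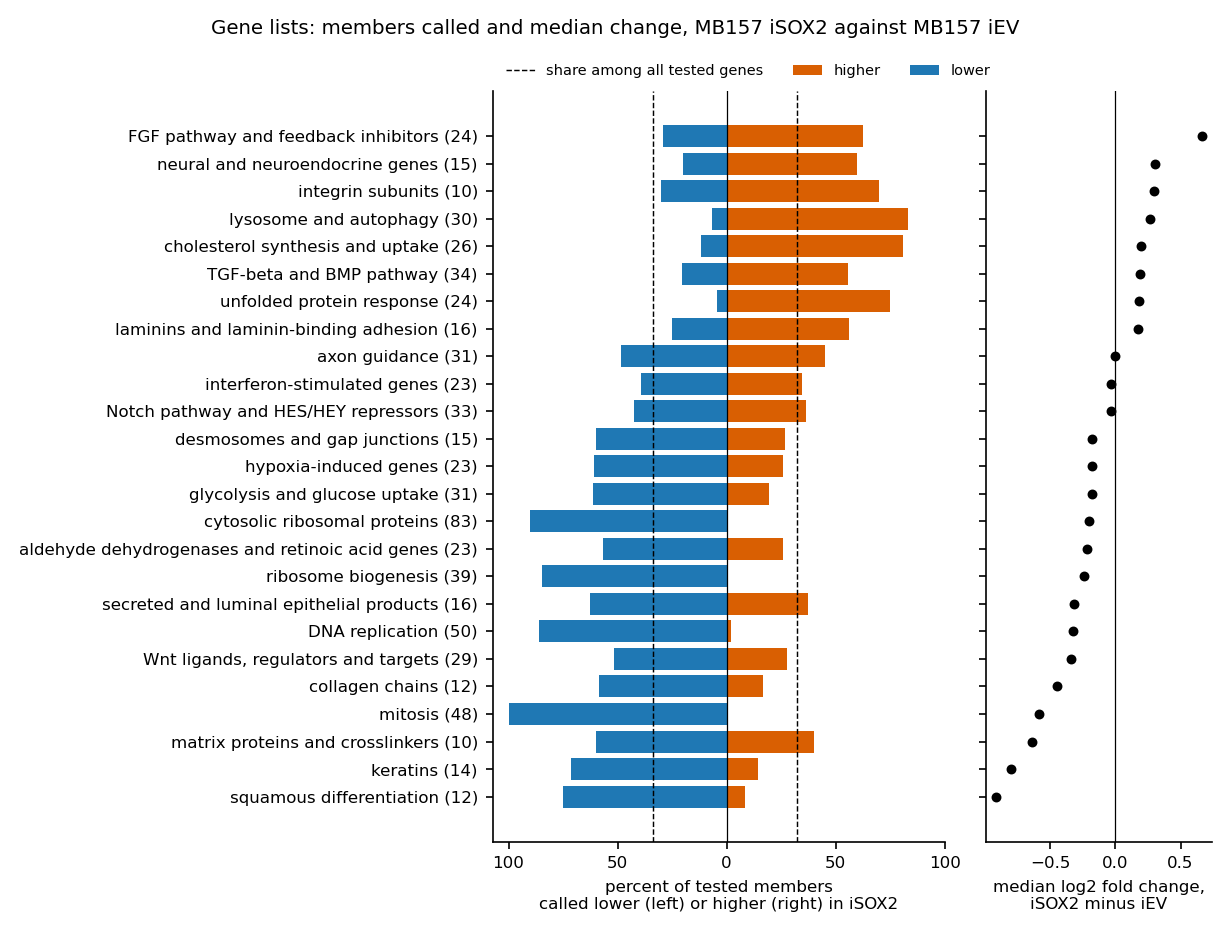
For 25 of the gene lists, bars give the percent of tested members (number in brackets) called lower (blue, left) or higher (orange, right) in iSOX2, with dashed lines at 33.9% and 32.5%, the shares among all tested genes, and the right panel gives the median log2 fold change of the list. Mitosis, DNA replication and ribosome lists extend far beyond the dashed line on the left, and lysosome, cholesterol and unfolded protein response lists do so on the right.

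Markers of cells that should be absent from a culture of 1 line were read beside these results. The summed level of 7 endothelial markers was 7.57 to 8.48 CPM in iEV and 104 to 113 CPM in iSOX2, and PECAM1 made up most of it in iSOX2. CDH5, the defining endothelial cadherin, had 0 counts in iEV and at most 0.0455 CPM in iSOX2. VWF stood at 6.04 to 7.37 CPM in iEV and 7.69 to 7.88 CPM in iSOX2. KDR was higher in every iSOX2 library, at 0.991, 1.58 and 1.41 CPM in iEV and 3.09, 3.99 and 3.66 CPM in iSOX2. TEK went from at most 0.0247 CPM to at least 0.198 CPM, and CLDN5 and EMCN stayed at or under 0.123 CPM. Of 8 fibroblast markers 2, COL1A1 and PDGFRA, reached 1 CPM, and their sum was 42.6 to 50.2 CPM in iEV and 69.8 to 76.4 CPM in iSOX2. Blood cell markers fell from 39.2 to 43.3 CPM to 11.3 to 13.8 CPM through CD14, the lipopolysaccharide coreceptor, and CD3E had 0 counts in every library. In bulk samples, fewer cells of a type and less RNA per cell cannot be told apart.

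Of the lists described here, that of the FGF pathway had the highest median change upward. The median falls of keratins (-0.80) and squamous genes (-0.91) were larger in size. FGFs bind receptor tyrosine kinases together with heparan sulfate and activate ERK, which induces its own phosphatases and SPRY inhibitors. Of 24 genes of this pathway 15 rose, 10 of them by at least 2-fold, and 7 fell, with a median log2 fold change of 0.66. FGFR1 stood at 103, 96.5 and 98.2 CPM in iEV and at 544, 559 and 544 CPM in iSOX2, and FGFR2 at 18.4, 16.8 and 18.2 CPM and 73.9, 79.1 and 72.5 CPM. These receptors rose 5.52-fold and 4.22-fold with no overlap. FGFR4 fell 1.21-fold, and FGFR3 stood at 12.97 ± 0.772 and 11.7 ± 1.26 CPM and did not pass (log2 fold change -0.14, adjusted p = 0.147). DUSP6, the ERK phosphatase, rose 11.9-fold from 3.4 ± 0.578 to 40.3 ± 1.14 CPM. Of the heparan sulfate carriers GPC4 rose 5.06-fold and SDC1 fell 2.24-fold, beside the 6.87-fold fall of the FGF carrier FGFBP1.

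Among the EGFR family, its ligands and other receptor tyrosine kinases, 12 rose and 11 fell of 26 (median 0.052). The ligand BTC, betacellulin, rose 11.4-fold from 1.16 ± 0.131 to 13.2 ± 0.656 CPM, and KITLG, the ligand of KIT, rose 3.0-fold, while the EGFR ligand TGFA fell 1.81-fold. ERBB3, a receptor of neuregulins, fell 1.17-fold. SRC, the kinase for which its family is named, stood at 134 ± 6.38 CPM in iEV and 128 ± 1.96 CPM in iSOX2 and did not pass (log2 fold change -0.061, adjusted p = 0.137), though it did in the fit that left out replicate 2 of MB157 iEV (-0.097 on the log2 scale, adjusted p = 0.024 from the same test). FYN, of the same family, rose 1.5-fold.

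In the Hedgehog pathway PTCH1, the receptor that holds the pathway off and is also its target, stood at 22.9, 22.2 and 21.2 CPM in iEV and at 143, 138 and 132 CPM in iSOX2, a 6.24-fold rise in all 3 libraries. GLI3, its repressor, and SUFU, which holds GLI proteins in the cytoplasm, rose 1.95-fold and 1.42-fold. The coreceptor BOC fell 1.88-fold. GLI1 and GLI2 were not tested, and of the 7 tested genes 4 rose and 2 fell.

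Notch pathway genes were called in both directions, at shares not far from those of all tested genes. Notch receptors, cleaved on binding a ligand, release an intracellular domain that joins RBPJ and switches on HES and HEY repressors. Of 33 tested genes 12 rose and 14 fell (36.4% and 42.4%, against 32.5% and 33.9% of all tested genes). NOTCH1 (chromosome 9, 136494433 to 136546048) stood at 111, 100.1 and 107 CPM in iEV and at 36.5, 41.03 and 35.97 CPM in iSOX2, 2.8-fold lower, and NOTCH3 fell 1.54-fold. The counts do not separate the exons of NOTCH1, so they do not show the deletion inferred by the study. Of the targets, HEY2 fell 6.36-fold, HES5 5.44-fold, the feedback inhibitor NRARP 3.47-fold and HES1 1.78-fold. HEY1, a repressor of the same family as HEY2, went the other way, from 5.51, 4.59 and 4.49 CPM in iEV to 48.5, 54.2 and 46.9 CPM in iSOX2. It was 10.3-fold higher in all 3 libraries, and LFNG, which glycosylates Notch receptors, and the coactivator MAML2 rose 2.53-fold and 2.31-fold.

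Wnt genes fell more often than they rose. Wnt ligands stabilize β-catenin, and secreted inhibitors keep them from their receptors. Of 29 tested genes 8 rose and 15 fell (median -0.34). Beside DKK1, the secreted inhibitor WIF1 rose 5.95-fold to 5.57 ± 0.327 CPM, and ZNRF3, the ligase that removes Wnt receptors from the membrane, rose 4.59-fold. In the other direction, the inhibitors SFRP1 and NOTUM fell 2.32-fold and 2.37-fold. The target AXIN2 fell 1.77-fold, from 16.5 ± 2.0 to 9.31 ± 0.848 CPM, and the factor TCF7 1.51-fold. LEF1 and LGR5 were not tested.

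Of 34 genes of the TGF-beta and BMP pathway 19 rose and 7 fell (median 0.19). The receptor TGFBR2 rose 4.38-fold, from 4.12, 4.61 and 4.04 CPM in iEV to 19.1, 19.4 and 17.4 CPM in iSOX2. ACVR2A, an activin receptor, rose 2.47-fold and LEFTY2, a secreted nodal inhibitor of the early embryo, 3.02-fold. Of the ligands, TGFB2 rose 1.22-fold, the activin subunit INHBB fell 3.14-fold and BMP6 fell 9.22-fold. BAMBI, a decoy receptor, fell 1.99-fold.

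**Figure D4:**
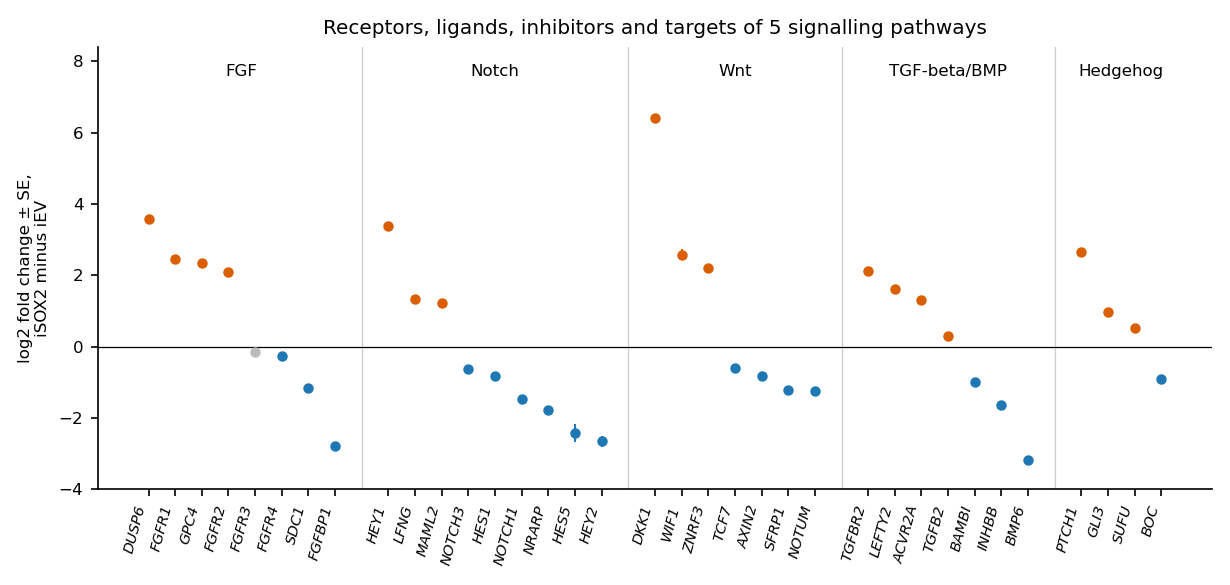
Log2 fold changes (iSOX2 minus iEV) with their standard errors from edgeR's fit are plotted for genes named for 5 signaling pathways (orange for called higher, blue for called lower and grey for not called), and most error bars are shorter than the points. Each pathway holds genes on both sides of 0, with DKK1 furthest above and BMP6 furthest below.

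Genes of mitosis and DNA replication fell, with few exceptions and mostly by less than 2-fold. Of 48 tested genes of mitosis all 48 fell (33.9% of all genes did), with a median log2 fold change of -0.58 and a range from -1.03 to -0.26. The mitotic kinases AURKA, AURKB and PLK1 fell 1.47-fold, 1.8-fold and 1.6-fold. CCNB1, the cyclin of mitotic entry, stood at 147, 163 and 154 CPM in iEV and at 103, 102 and 105 CPM in iSOX2, and NEK2, a centrosome kinase, fell 2.05-fold, the only member past 2-fold. Of 50 genes of DNA replication 43 fell and 1 rose (median -0.33). PCNA, the replication clamp, and MCM3, of the replicative helicase, fell 1.33-fold and 1.26-fold. The catalytic primase subunit PRIM1 fell 1.81-fold, while the 1 gene that rose was its partner PRIM2, from 28.3, 31.5 and 31.1 CPM in iEV to 50.2, 50.4 and 50.1 CPM in iSOX2. With library totals alone 48 of the mitosis and 41 of the replication genes were still lower.

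Of 30 cyclins, kinases and inhibitors of the cycle 16 fell and 9 rose. CCND1 (chromosome 11, 69641156 to 69654474), the cyclin D1 of the G1 phase, stood at 819.5, 776 and 843 CPM in iEV and at 273, 287 and 282 CPM in iSOX2, 2.89-fold lower (log2 fold change -1.53, standard error 0.033, adjusted p = 7.6e-16). MYC and MYCN, transcription factors that drive growth, fell 1.73-fold and 3.1-fold. The CDK inhibitor CDKN1A (p21) rose from 18.7, 17.1 and 16.6 CPM to 71.1, 69.3 and 67.6 CPM, CDKN1C (p57) rose 2.83-fold, and CDKN1B (p27) fell 1.39-fold. Among 25 targets of p53 the counts were even, 10 higher and 11 lower. CDKN1A, PLK2 (3.29-fold) and TP53INP1 (2.6-fold) rose, and MDM2, BAX and SFN fell 1.13-fold, 1.13-fold and 1.76-fold. Of 27 apoptosis regulators 9 rose and 11 fell, with the survival genes BCL2L1 1.83-fold higher and MCL1 1.46-fold lower.

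The translation machinery fell by a small and even step. Of 83 genes of cytosolic ribosomal proteins and elongation factors, counted as 1 list, 75 fell and 0 rose, with a median of -0.20 and a range from -0.37 to 0.045. RPL3 stood at 2399, 2332 and 2463 CPM in iEV and at 1927, 1923 and 1913 CPM in iSOX2, and RPS6 fell 1.19-fold. Of 39 genes of ribosome biogenesis 33 fell and 0 rose (median -0.24), with FBL, which methylates ribosomal RNA, 1.34-fold lower and DKC1, its pseudouridine synthase, 1.4-fold lower. The elongation factors EEF1A1 and EEF2, which are members of the list of 83, fell 1.1-fold and 1.26-fold. At library totals alone 61 of the 83 genes and 27 of the biogenesis genes were lower and 3 of each list were higher, so that the number of calls depends in part on the scaling.

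Metabolic genes divided by pathway. Of 26 genes of cholesterol synthesis and uptake 21 rose and 3 fell (median 0.19). SQLE, which oxidizes squalene, rose 1.18-fold and TM7SF2, a sterol reductase, 2.33-fold, from 5.05 ± 0.151 to 11.8 ± 0.497 CPM. Genes of fatty acid synthesis did not follow, with 10 higher and 12 lower of 27. FASN and SCD, for synthesis and desaturation, fell 1.27-fold and 1.23-fold, and ELOVL6, an elongase, rose 3.54-fold.

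Of 31 genes of glycolysis and glucose uptake 19 fell and 6 rose (median -0.18). LDHA, which makes lactate, fell 1.39-fold, HK2, a hexokinase, 1.35-fold and PDK3, which shuts pyruvate out of mitochondria, 2.21-fold, from 553 ± 25.5 to 249 ± 5.38 CPM. Of 23 hypoxia-induced genes 14 fell and 6 rose. DDIT4, an inhibitor of mTORC1, fell from 298, 303 and 298 CPM in iEV to 75.8, 75.3 and 79.9 CPM in iSOX2. Genes of serine and amino acid supply fell in 15 and rose in 9 of 30 cases, with PHGDH, the first enzyme of serine synthesis, 1.88-fold and the leucine transporter SLC7A5 2.3-fold lower and the amino acid transporter SLC1A4 2.55-fold higher.

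Genes of the secretory and degradative organelles rose far more often than they fell. Of 30 genes of lysosome and autophagy 25 rose and 2 fell (median 0.27), with LAMP1, a membrane protein of lysosomes, and the protease CTSD 1.17-fold and 1.2-fold higher. The 2 that fell were CTSB, another cathepsin (1.13-fold), and TFEB, the factor that drives lysosomal genes (1.22-fold). Of 24 genes of the unfolded protein response 18 rose and 1 fell (median 0.18), none by 2-fold. HSPA5, the chaperone BiP, rose 1.17-fold and XBP1, a factor of this response, 1.23-fold.

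Retinoic acid genes and markers used for stem-like cells were also measured. Of 23 aldehyde dehydrogenases and retinoic acid genes 13 fell and 6 rose (median -0.22). ALDH1A3, which makes retinoic acid, fell 2.28-fold, the carriers CRABP1 and CRABP2 3.21-fold and 2.94-fold, and the receptor RARB 3.91-fold. CYP26B1, which breaks retinoic acid down, rose from 2.45, 2.32 and 2.12 CPM in iEV to 16.4, 15.7 and 14.3 CPM in iSOX2. ALDH1A1 was not tested. Of 13 surface markers of stem-like cells 5 rose and 5 fell. CD44 and CD49f (ITGA6) rose as given above and the chemokine receptor CXCR4 rose 6.26-fold, while PROM1, which encodes CD133, fell 2.27-fold, from 441 ± 10.3 to 194 ± 7.28 CPM, and CD24 1.38-fold.

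SOX, POU and pluripotency factors were even in number, with 8 higher and 8 lower of 16, SOX2 among the higher. SOX9 and SOX4, factors of epithelial progenitors, fell 1.41-fold and 1.18-fold, and SOX8 fell 2.12-fold. POU5F1, which encodes OCT4 and has pseudogenes that can share its reads, fell from 2.56 ± 0.0544 to 0.906 ± 0.166 CPM. Of 15 neural genes 9 rose and 3 fell (median 0.31). After CNTN1 the largest rise was that of MDGA1, a neural adhesion regulator, which rose 20.5-fold to 50.8 ± 2.19 CPM, while the microtubule protein MAPT fell 1.86-fold. NES and NEUROD1 were not tested, so this list covers a minority of the 40 genes written for it.

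Guidance genes were even, 14 higher and 15 lower of 31, with changes of both signs past 2-fold. Of the semaphorins SEMA3C rose 2.29-fold beside SEMA3D. Of the ephrins and their receptors EFNB2, a membrane ligand, rose 3.04-fold, from 69.6 ± 3.03 to 212 ± 4.37 CPM, and EFNA5, EPHB1 and EPHB6 fell 2.72-fold, 4.0-fold and 4.28-fold. The netrin receptor UNC5C rose 4.06-fold.

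Long genes were more often among the rises. Gene spans, from the first to the last base, came from RefSeq for 10899 of the tested genes, with a median of 29985 bases. The median was 59185 bases for the 377 genes higher by at least 2-fold and 18761 bases for the 283 lower genes. Of the 2232 genes under 10 kb, 2.64% rose and 4.35% fell by at least 2-fold, and of the 313 genes of 300 kb or more, 14.7% rose and 3.51% fell. At a mean of 10 CPM or more over the 6 libraries, 12.8% of 258 genes of 300 kb or more and 2.44% of 8986 shorter genes rose, and below it 23.6% of 55 and 7.0% of 1600. Genes of cell adhesion and of neurons are known to be long, and what part they have in this was not tested.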

How the data were processed

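Poly(A) RNA of 3 MB157 iEV and 3 MB157 iSOX2 cultures, given by the study as biological replicates, was sequenced from stranded libraries. The authors aligned reads to hg38 with STAR and deposited estimated counts per gene from Salmon, of which 87.9% were whole numbers (within 1e-06), with no normalization. They also deposited log2 TMM-scaled CPM of the 10904 genes left by their filter, which removed low values and also uncharacterized, predicted and pseudogenes, made with edgeR 3.42.4, and these log2 values could be recomputed from the counts to within 4.97e-14. The annotation release behind the counts is not given in the sources used here, and 61 gene names occur more than once. Estimated counts were rounded here and tested in R 4.3.3 with edgeR 4.0.16 (TMM factors, library sizes from all entries, quasi-likelihood test, adjusted p under 0.05). Python 3.11.15 with pandas 2.3.3 and matplotlib 3.10.9 read gene spans and promoters (RefSeq, GRCh38.p14) and drew the figures. limma 3.58.1 (voom) and DESeq2 1.42.0 were alternatives, beside other scalings, filters, fits and left-out libraries. The scripts were tested on simulated data.

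Gene lists, cell type markers and the genes named (SOX2, the 10 largest rises and falls, the 5 largest in CPM, the 3 largest rises and falls and the first 4 genes of each list, and genes the study measured in these cells) were chosen with earlier results of these data known. Counts and medians of lists are descriptions without a test. The libraries held 32773820 to 43344439 counts, so that 3 counts over the 3 libraries of a group correspond to 0.0262 CPM in iEV and 0.0233 CPM in iSOX2. The p-values measure the spread among 3 cultures per group. The groups are lines transduced with different vectors, and the series holds no iSOX2 library without doxycycline. Other differences between the lines therefore cannot be told apart from the response to SOX2 induction. Replicate numbers gave no sign of a pairing, since the deviations of libraries with the same number correlated at -0.087, -0.084 and 0.074. Libraries with different numbers correlated at -0.067 to 0.132. The highest were iEV replicate 2 with iSOX2 replicate 1 (0.132) and iEV replicate 1 with iSOX2 replicate 2 (0.111). A pairing in another order was not tested. The 2 other normalized tables of the series were not used. Values of a few single genes are not reported here.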

Additional observations from a re-analysis of the deposited data

Results flagged for a closer look

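Outside the table the authors filtered, 18840 entries of the count table were not part of the comparison, and 10081 of them had a count in at least 1 of the 6 libraries. In a fit with those entries added, 338 were called higher by at least 2-fold with a mean of 1 CPM or more in iSOX2, and 181 were called lower by at least 2-fold with a mean of 1 CPM or more in iEV. These entries were picked by the level in the group where they are high, so the counts are descriptions. They are given because the comparison leaves these entries out. FAM65B, an older name of RIPOR2, stood at 42.7, 42.0 and 39.7 CPM in iSOX2 (mean 41.5) and had 2 counts over the iEV libraries. All 9 others with the largest log2 fold changes had 0 counts in iEV. BMP3, a BMP family ligand that opposes other BMPs, reached a mean of 4.05 CPM, and LUZP2, a leucine zipper protein, 2.80 CPM. CCDC141, a coiled-coil protein of migrating neurons, reached 2.55 CPM and RFX6, a transcription factor of the endocrine pancreas, 2.03 CPM. The pepsinogen genes PGA5 and PGA4, near-identical copies between which reads may be split, reached 2.43 and 1.85 CPM. The entry RP11-416O18.1 reached 1.31 CPM. COMMD3-BMI1, a readthrough of 2 neighboring genes, had a mean of 6.48 CPM but 7.50, 10.9 and 1.05 CPM in the 3 libraries. The mean of LOC102724219, 2.12 CPM, came from 1 library, at 6.35 CPM in replicate 3 and 0 in replicates 1 and 2.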

How the results depend on the processing

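With the genes of the authors' filter replaced by all entries with a mean of 5 counts or more, 1697 genes were called with a change of at least 2-fold (1052 higher, 645 lower), and with no filter 1848 (1156 higher, 692 lower). Tested against a log2 fold change of 1, 473 genes were called (280 higher, 193 lower). In that test, which asks for a larger change, 90 of the genes named in the text were no longer called, and no other alternative ended the call of a named gene. Leaving out 1 library in turn, 6670 to 6920 genes were called (3317 to 3384 higher, 3343 to 3536 lower), with 656 to 664 changed at least 2-fold (372 to 380 higher, 276 to 287 lower). With the replicate block 7019 genes were called, 661 of them at least 2-fold. DESeq2 called 6908, limma-voom 7254 and a fit over all 12 libraries 6855. EPCAM, not called, had a log2 fold change of -0.0031, -0.0013 and -0.0015 with the mean filter, no filter and 12 libraries, and of -0.018 to 0.023 with a library left out. Of the medians of lists near 0, those of tight junction, SOX and POU, Notch, interferon, apoptosis, chaperone, stem marker and HOX genes changed sign with library totals alone, and those of protease, cadherin, tight junction, SOX and POU, axon guidance, p53, interferon, chaperone, stem marker and HOX genes with 1 library or another left out. That of axon guidance also did with the mean filter, no filter, 12 libraries and the replicate block, and that of proteases with the mean filter. The cause was not tested. The depth of 32773820 counts or more leaves genes with few counts as the limit, and paralogs such as CTAG1A or PGA4 stay uncertain.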

Other observations

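Among 22 NF-kB and inflammatory genes 5 rose and 9 fell. CXCL6, a neutrophil chemokine, stood at 0.031, 0.0239 and 0.074 CPM in iEV and at 6.89, 5.89 and 6.28 CPM in iSOX2, while the mucosal chemokine CCL28 went from 2.31 ± 0.787 to 0.149 ± 0.0894 CPM. TNFSF10, the death ligand TRAIL, rose 3.99-fold. Of 23 interferon-stimulated genes 8 rose and 9 fell, with IFI6 2.6-fold higher and IRF1, which induces antigen-presenting genes, 1.65-fold lower. Of 19 genes of antigen presentation 9 rose and 4 fell. The class I gene HLA-B rose 1.66-fold and the immunoproteasome subunit PSMB9 fell 2.18-fold. B2M, the light chain of class I molecules, stood at 0 CPM in every library of both groups.

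Of 19 NRF2 targets and metallothioneins 9 rose and 6 fell. AKR1C1 and AKR1C3, aldo-keto reductases of steroid metabolism that are close paralogs, rose 15.7-fold and 9.69-fold, and HMOX1 and NQO1, other targets of NRF2, fell 1.97-fold and 1.45-fold. Of 37 chromatin regulators 17 fell and 11 rose. HMGA2, a chromatin protein of embryonic tissue, rose from 2.17, 2.27 and 2.32 CPM to 7.63, 7.85 and 7.26 CPM, and its relative HMGA1 fell 1.54-fold. HDAC9, a class IIa deacetylase, rose 6.63-fold. Of 35 genes of the actin cytoskeleton 13 rose and 16 fell, with the bundling protein FSCN1 2.87-fold and the myosin MYH9 2.32-fold lower.

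Of 20 channels and pumps 8 rose and 10 fell. ANO1, a calcium-activated chloride channel of secretory epithelium, stood at 25.9, 25.02 and 25.96 CPM in iEV and at 4.62, 5.28 and 4.35 CPM in iSOX2, and the calcium channel subunit CACNA2D1 rose 4.81-fold. Of 17 genes of cyclic nucleotide and G protein signaling 11 rose and 5 fell, with the cGMP phosphodiesterase PDE5A 6.86-fold and the G protein regulator RGS2 5.3-fold higher. Of 22 chaperones 5 rose and 7 fell, with the small heat shock proteins CRYAB 3.27-fold higher and HSPB1 1.82-fold lower. Of 21 AP-1 and immediate-early genes 6 rose and 11 fell, of 26 Hippo targets 10 and 11, of 12 HOX genes and their partners 3 and 3, of 20 genes of SRC kinases and focal adhesion 11 and 4, and of 13 growth factors and their binding proteins 6 and 5. Of 43 genes of the respiratory chain 8 rose and 18 fell with TMM, but 14 rose and 9 fell with library totals alone.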
